A study of Mus musculus with 4 samples.

Results

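Rad21 chromatin immunoprecipitation with sequencing (ChIP-seq) peaks were described in the 4 mouse Hox gene clusters and the 250 kb on each side of each cluster. The members were chosen by position alone, as any peak that overlapped by at least 1 bp the mm9 windows chr6:52100000-52225000 (Hoxa), chr11:96050000-96240000 (Hoxb), chr15:102750000-102870000 (Hoxc) and chr2:74500000-74610000 (Hoxd), or their flanks. Peaks of the 4 libraries that touched or overlapped were joined into regions. The Hox loci held 52 of 34743 regions, 19 in the cluster windows and 33 in the flanks, built from 133 of 92937 peaks. A region is called in a library when 1 of its peaks lies in it, and no Hox region held more than 1 peak of any library.

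The study examined 53BP1, a factor of DNA double-strand break repair, in v-Abl transformed pro-B cell lines, early B-lineage cells kept growing by the Abelson virus kinase. Both groups were RAG1 deficient, carried an Emu-Bcl2 transgene and were treated with 3 uM STI-571, an inhibitor of that kinase, for 4 days. The WT group (2 libraries) had intact 53BP1 and the 53BP1_KO group (2 libraries) lacked it. Each immunoprecipitation used 25 ug of chromatin fixed with 1% formaldehyde and sheared to 200 to 700 bp. Titles and the extraction protocol name Rad21 as the target, whereas the treatment field of all 4 libraries names a 53BP1 antibody, so the name Rad21 rests on the titles and the protocol. The labels do not say if libraries of the same genotype are separate clones or cultures, so p-values measure only the spread between these libraries, which may be technical. Peak lists measure neither transcripts nor 53BP1, so cell type and genotype could not be checked against markers.

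Rad21 closes the ring of cohesin, the complex that extrudes chromatin loops and halts at sites bound by CTCF. Hox genes encode homeodomain transcription factors that set position along the body axis, and their order on the chromosome follows the order in which they are expressed, the numbering running from the early, anterior genes to the late, posterior Hox13 genes. CTCF and cohesin sites are known inside these clusters, where they separate active from silent genes. In blood progenitors the Hoxa and Hoxb genes are the best known to be active.

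The clusters hold 39 Hox genes in the RefSeq gene table. Hoxa has 11 and lies between Skap2, an adaptor of kinase signalling, and the homeobox gene Evx1. Hoxb has 10, from Hoxb13 to Hoxb1, between Ttll6, a tubulin-modifying enzyme, and Skap1, another adaptor. Hoxc has 9, from Hoxc13 to Hoxc4, between Calcoco1 and Smug1, a uracil-DNA glycosylase. Hoxd has 9, from Hoxd13 to Hoxd1, between the homeobox gene Evx2 and Mtx2, a mitochondrial outer membrane protein. The table also places microRNA genes of the Mir10 and Mir196 families within the clusters. That table uses another genome build, so it gave gene order only, and no peak was assigned to a gene. Positions are given below as the distance from the window edge on the side of the Hox13 gene, which is the high-coordinate edge for Hoxa and the low-coordinate edge for the others.

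The 4 lists differ in scale, which touches every comparison between genotypes. The lists held 21971 (WT 1), 23029 (WT 2), 25145 (53BP1_KO 1) and 22792 (53BP1_KO 2) peaks. The median fold enrichment, the peak caller's ratio of signal to background and the authors' own value for each peak, was 4.10, 4.06, 4.15 and 3.67. 53BP1_KO 2 thus had the weakest folds, and 53BP1_KO 1 the most peaks. Read depth is unknown because the lists hold no counts. Strength was therefore compared as the percentile of a peak's fold within its own list, where 100 is the strongest.

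Taken over the 4 clusters together, Rad21 peaks were denser inside the windows than around them in all 4 libraries, while the Hoxc window alone was less dense than its flanks in each library. The windows held 14, 15, 16 and 11 peaks in WT 1, WT 2, 53BP1_KO 1 and 53BP1_KO 2, and the flanks held 17, 20, 23 and 17. Per megabase this came to 25.7, 27.5, 29.4 and 20.2 peaks in the windows and 8.50, 10, 11.5 and 8.50 in the flanks. The flanks were close to the density of the whole lists, 8.33, 8.73, 9.53 and 8.64 peaks per megabase. The windows exceeded the flanks by 16.1 ± 2.93 peaks per megabase (SD over the 4 libraries), in 4 of 4 libraries. The exact two-sided sign permutation gave p = 0.125, the smallest that 4 libraries allow. All libraries read the same loci, so this p describes these libraries and does not compare Hox clusters with other loci. How often windows elsewhere exceed their flanks was not computed.

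**Figure D1:**
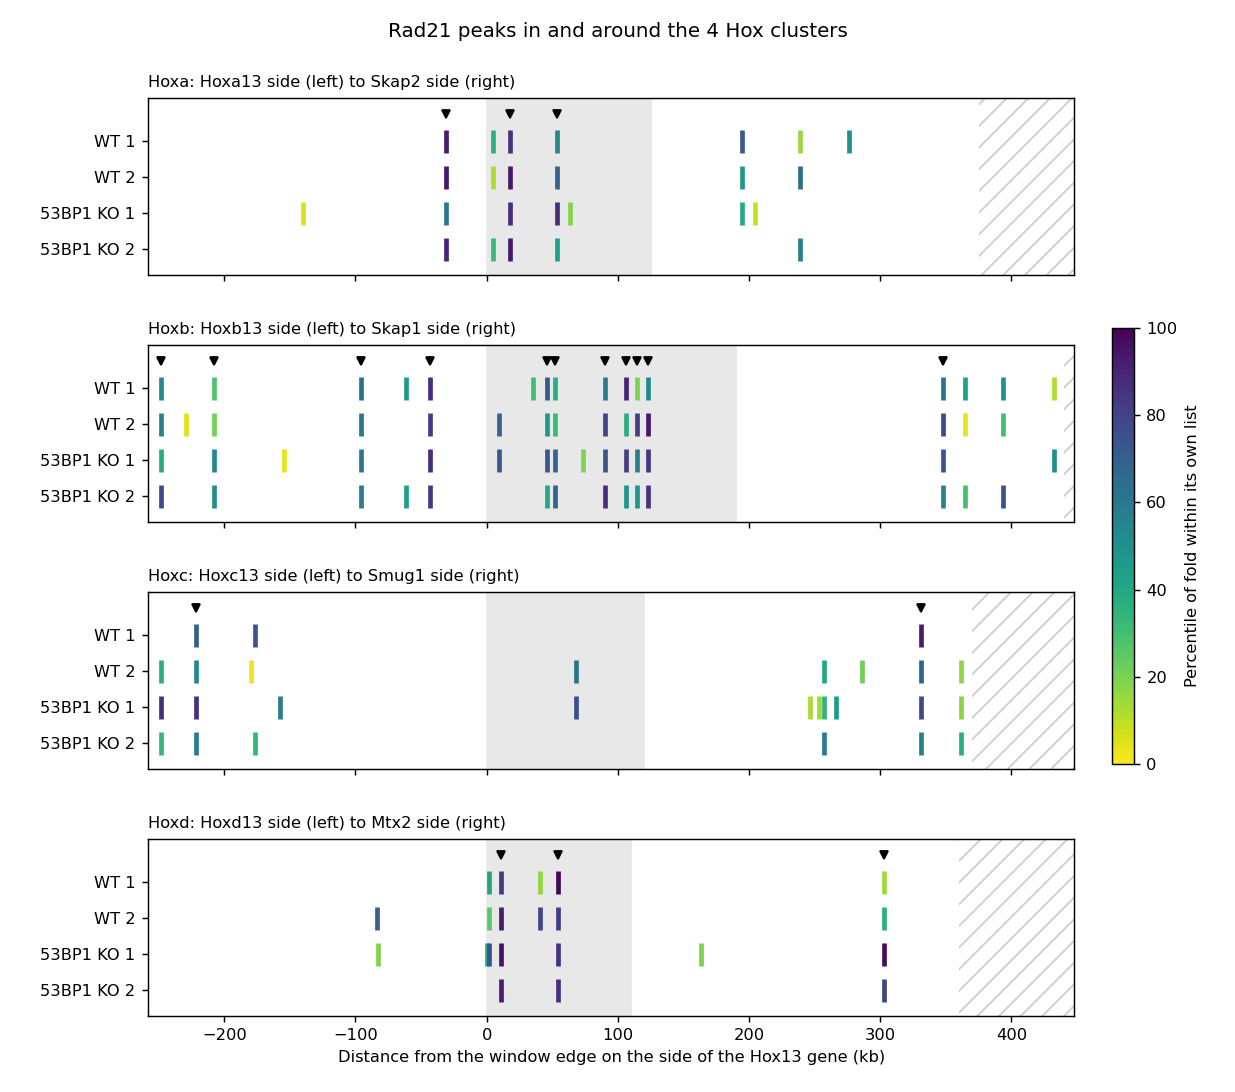
Position of every Rad21 peak region against distance in kb from the Hox13-side window edge, with 1 row per library and 1 panel per cluster. Grey shading marks the window, hatching lies beyond the flank, colour gives the percentile of the fold within the list, and triangles mark the 19 regions called in all 4 libraries; the right-hand edge of each window is empty in all 4 libraries.

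The 4 clusters were unequal. Hoxb carried the most peaks, 7, 7, 8 and 6 in the order WT 1, WT 2, 53BP1_KO 1 and 53BP1_KO 2, over a window of 190 kb. Hoxa had 3 peaks in each of the 4 libraries within 125 kb. Hoxd had 4, 4, 4 and 2 within 110 kb, and Hoxc had 0, 1, 1 and 0 within 120 kb. Hoxc was thus the cluster with the fewest peaks in each library, and its window was empty in 1 library of each genotype.

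**Figure D2:**
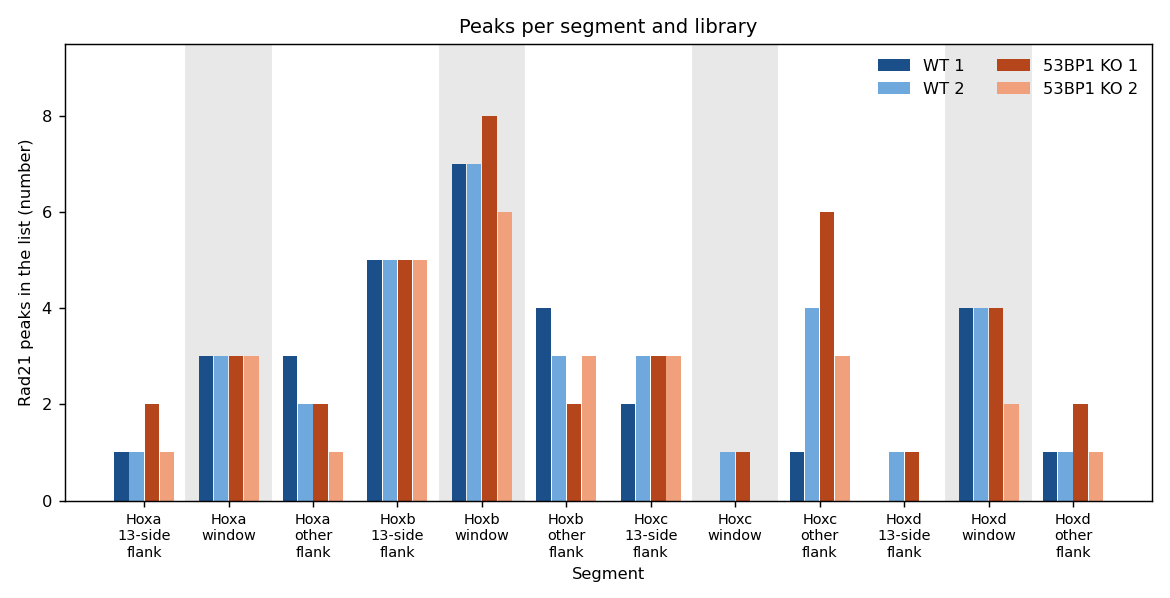
Number of Rad21 peaks in each of the 12 segments, with 1 bar per library; grey shading marks the cluster windows. The Hoxb window holds 6 to 8 peaks in each library and the Hoxc window at most 1.

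The flanks followed a different order. The Hox13-side flank of Hoxb, past Hoxb13 toward Ttll6, held 5 peaks in each library, and its opposite flank held 4, 3, 2 and 3. The Hox13-side flank of Hoxa, toward Evx1, held 1, 1, 2 and 1, against 3, 2, 2 and 1 on the Skap2 side. Hoxc had 2, 3, 3 and 3 on its Hox13 side and 1, 4, 6 and 3 past Hoxc4, the widest spread of any segment. Hoxd was sparse on both sides, with 0, 1, 1 and 0 on the Evx2 side and 1, 1, 2 and 1 on the Mtx2 side. Hoxc therefore had fewer peaks inside the cluster than in its flanks in each library, also per megabase, with 0, 8.33, 8.33 and 0 inside against 6, 14, 18 and 12 in its flanks. Hoxd had more inside.

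Inside the clusters, 10 of 19 regions were called in all 4 libraries, a share of 52.6% (95% Wilson interval 31.7 to 72.7%). In the flanks the share was 9 of 33, or 27.3% (15.1 to 44.2%), and over windows and flanks together it was 19 of 52, or 36.5% (24.8 to 50.1%). Over all regions it was 41.7%, which lies within the intervals of the windows and of both together, and within that of the flanks. These intervals cover counting error only and treat regions as independent. By cluster, the shared regions were 2 of 4 in the Hoxa window, 6 of 9 in Hoxb, 0 of 1 in Hoxc and 2 of 5 in Hoxd. In the flanks they were 1 of 6 around Hoxa, 5 of 11 around Hoxb, 2 of 12 around Hoxc and 1 of 4 around Hoxd.

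Read per library, the share of a library's own window peaks that lay in regions called in all 4 libraries was 71.4% in WT 1, 66.7% in WT 2, 62.5% in 53BP1_KO 1 and 90.9% in 53BP1_KO 2. The same share in the flanks was 52.9, 45, 39.1 and 52.9%, against 66.5, 63.4, 58.1 and 63.8% over the whole lists. Each library has 1 peak in every shared Hox region, so the Hox shares differ between libraries only through the number of peaks. The flanks were below the whole list in each library, which is thus not 4 separate results. In the windows all libraries but 53BP1_KO 2, which had the fewest window peaks, stood within 5 percentage points of their whole list.

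**Figure D3:**
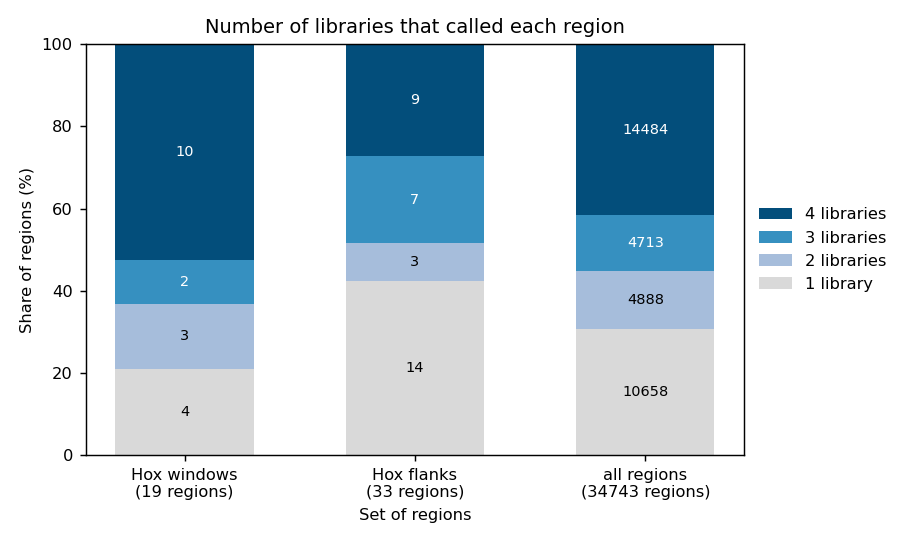
Share of regions, in %, by the number of libraries that called them, for Hox windows, Hox flanks and all regions; the number in each block counts regions. Regions of all 4 libraries make up 52.6% of the windows, 27.3% of the flanks and 41.7% of all regions.

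Regions called in 1 library made up 18 of 52 Hox regions, or 34.6%, against 30.7% of all regions. Of these, 2 were from WT 1, 4 from WT 2, 12 from 53BP1_KO 1 and 0 from 53BP1_KO 2. 53BP1_KO 1 thus held 66.7% of the Hox regions of 1 library, while it held 35.5% of such regions genome-wide, and 53BP1_KO 2 held 0 against 29.8% genome-wide. WT 1 held 11.1% against 15.0% and WT 2 held 22.2% against 19.7%. These regions had a median width of 357 bp, against 796 bp for the 19 shared ones, and genome-wide the widths were 316 and 919 bp. Their percentiles ran from 2.5 to 69.1. The 6 regions of 2 libraries had a median width of 607 bp and the 9 regions of 3 libraries one of 733 bp. Median width thus rose with the number of libraries. A region spans all its joined peaks, so a further library can widen it but not narrow it, and part of this order is built in.

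In the Hoxa window, the strongest region lay 17.97 kb inward from the Hoxa13-side edge (chr6:52206609-52207444, 836 bp), with folds of 5.13 in WT 1, 5.55 in WT 2, 5.48 in 53BP1_KO 1 and 4.78 in 53BP1_KO 2. These folds stood at percentiles 85.5, 93.6, 87.3 and 93.3 of their lists, so it ranked among the strong peaks of each library. The widest Hoxa region lay at 53.2 kb (chr6:52171230-52172320, 1091 bp), with folds of 4.18, 4.49, 5.51 and 3.59 in the same order. Its percentiles were 53.7, 69.1, 87.8 and 44.3, with both WT libraries between the knockout ones. Another region at 4.4 kb (chr6:52220109-52221028) was called in every library but 53BP1_KO 1, at percentiles 36.1, 12.5 and 32.3. The remaining Hoxa region, at 63.6 kb, was called in 53BP1_KO 1 only. In the flank toward Evx1, at −31.1 kb and thus outside the window, a shared region (chr6:52255669-52256464) had folds of 5.61, 5.59, 4.39 and 4.57. No region of the flank toward Skap2 was called in all 4 libraries.

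The 6 shared regions of the Hoxb window formed 2 groups along the cluster. A pair lay close together at 46.2 kb (chr11:96095678-96096782, 1105 bp, the widest of the cluster) and 51.7 kb (chr11:96101535-96101880, 346 bp). Folds at the first were 4.65 and 3.99 in WT and 4.80 and 3.53 in the knockout, and at the second 3.86 and 3.72 in WT and 4.63 and 3.98 in the knockout. At the second, both knockout folds exceeded both WT folds, though the 53BP1_KO 2 fold did so by a small margin.

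The other 4 lay between 90.2 and 123.2 kb. At 90.2 kb (chr11:96139782-96140518) the folds were 4.27, 4.85, 4.83 and 4.48 in the order WT 1, WT 2, 53BP1_KO 1 and 53BP1_KO 2. At 123.2 kb (chr11:96172745-96173613) they were 4.18, 5.53, 5.27 and 4.41, the highest peak of the cluster in WT 2. These regions had 1 WT library below both knockout libraries and the other above at least 1 of them in percentile. At 105.9 kb (chr11:96155635-96156248) the folds were 5.39, 3.82, 5.12 and 3.64, with replicate 1 of both genotypes above replicate 2. At 114.8 kb (chr11:96164386-96165116) they were 3.56, 4.91, 4.30 and 3.63. Percentiles at that site were 19.7 in WT 1 and 82.0 in WT 2, so the WT libraries differed more from each other than the 53BP1_KO libraries did, at 56.4 and 47.2. The genotypes overlapped at 5 of these 6 regions in percentile. Of all regions called in all 4 libraries, 18.7% had both knockout percentiles above both WT ones and 16.1% both below.

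Around Hoxb, the strongest flank region lay at −43.0 kb, toward Ttll6 (chr11:96006554-96007523, 970 bp), with folds of 5.23, 4.88, 5.48 and 4.33. Its percentiles, 87.3, 81.5, 87.4 and 83.0, spanned a narrow range over the 4 libraries. It was 1 of 2 Hox regions that reached a −log10 q of 5, a stricter significance than the lists' own limit of about 1, in every list, the other being the Hoxa region at 17.97 kb. Of all regions called in all 4 libraries, 16.2% did so. On the same side, shared regions at −95.4 kb (chr11:95953997-95955140) and −248.6 kb (chr11:95801056-95801779), named after their values were seen, had folds of 4.37, 4.26, 4.41 and 3.80 and of 4.15, 4.18, 3.88 and 4.17. At the first of these the percentiles lay between 58.2 and 62.6 in all 4 libraries, the narrowest range of the 19 shared Hox regions. Past Hoxb1, the single shared flank region lay at 347.5 kb from the Hox13-side edge (chr11:96397097-96397898), with folds of 4.35, 4.75, 4.81 and 3.76.

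The Hoxc window held a single region, 67.9 kb from its Hoxc13-side edge (chr15:102817501-102818366, 866 bp). It was called in WT 2 with a fold of 4.31 and in 53BP1_KO 1 with a fold of 4.89, at percentiles 61.9 and 75.2, and in neither of the others. It thus crossed both genotypes and both replicate numbers. In the flanks, shared regions lay far from the cluster, at −221.3 kb past Hoxc13 (chr15:102528384-102529078) with folds of 4.57, 4.12, 5.41 and 3.80, and at 330.9 kb on the Hoxc4 side (chr15:103080589-103081270) with folds of 5.61, 4.45, 5.01 and 3.77. Both had their lowest fold in 53BP1_KO 2, the list with the lowest median fold.

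By their lowest percentile over the 4 libraries, the strongest shared window regions were the Hoxa region at 17.97 kb and both shared regions of Hoxd. A region at 54.2 kb (chr2:74553636-74554698, 1063 bp) had folds of 6.78 in WT 1, 4.91 in WT 2, 5.37 in 53BP1_KO 1 and 4.45 in 53BP1_KO 2, at percentiles 98.8, 82.1, 85.7 and 86.5. The widest region of all Hox windows lay at 10.8 kb (chr2:74510060-74511546, 1487 bp), with folds of 5.00, 5.43, 6.21 and 4.68 at percentiles 82.5, 92.2, 95.3 and 91.7. Every library ranked both of them in the top 20% of its list, and the genotypes overlapped at each. Nearer the Hoxd13-side edge, at 1.7 kb (chr2:74501454-74502029), a region was called in every library but 53BP1_KO 2, with folds of 3.93, 3.61 and 4.83. The only Hox region that crossed a window edge (chr2:74499742-74500117) was called in 53BP1_KO 1 alone, with a fold of 3.89.

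**Figure D4:**
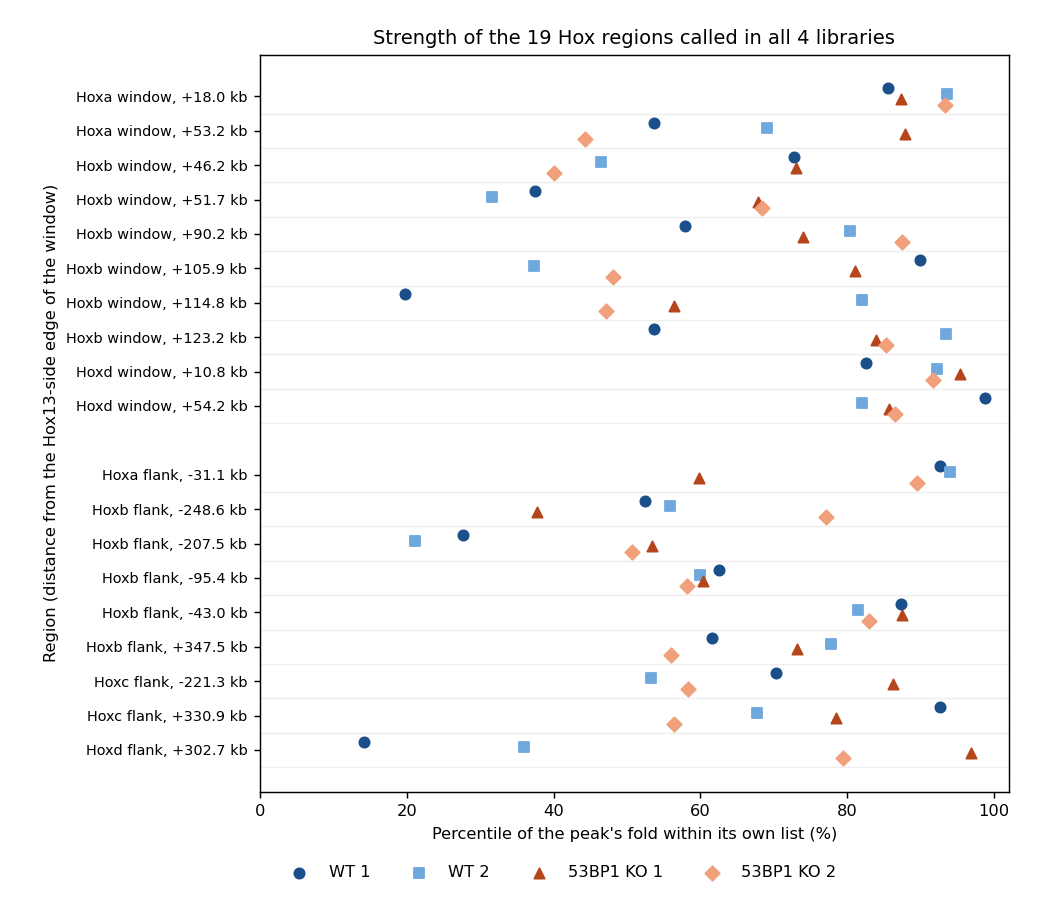
Percentile of the fold within its own list, in %, for the 19 Hox regions called in all 4 libraries, 10 in windows and 9 in flanks; each point is 1 library, and rows give the distance from the Hox13-side window edge. In 4 of the 19 rows the WT points and the 53BP1_KO points do not overlap, with 53BP1_KO above in 3 and below in 1. Of all regions called in all 4 libraries, 18.7% had 53BP1_KO above and 16.1% below.

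Window regions lay mostly toward the Hox13 side. Of the 19, 14 had their centre on the Hox13 side of the window midpoint. They were 3 of 4 in Hoxa, 6 of 9 in Hoxb, 0 of 1 in Hoxc and 5 of 5 in Hoxd. Of the 10 shared regions, 7 did so, 2 of 2 in Hoxa, 3 of 6 in Hoxb and 2 of 2 in Hoxd. The shared regions of Hoxb were thus evenly split. At the opposite edge every window ended in a stretch free of peaks in all 4 libraries. The stretch was 130.6 kb long past the last Hoxa region toward Skap2, 61.3 kb of it inside the window, and 223.5 kb past the last Hoxb region, 66.4 kb of it inside. For Hoxc it was 177.6 kb (51.6 kb inside) and for Hoxd 108.9 kb (55.3 kb inside). Stretches at least this long were 10.2, 5.57, 7.24 and 12.7% of all gaps between neighbouring regions, whose median was 24.5 kb. Each stretch was picked because it covers a fixed window edge, which favours long gaps. These shares count every gap once, so they do not show that the stretches are unusually long. In single libraries the Hoxb stretch ran from 223.7 to 224.1 kb and the Hoxa stretch from 130.6 to 184.8 kb. The Hoxc stretch was 507.2, 189.3, 177.6 and 434.2 kb in the order WT 1, WT 2, 53BP1_KO 1 and 53BP1_KO 2, its window being empty in the first and the last. The Hoxd stretch was 248.1, 247.8 and 247.9 kb in 3 libraries and 109.1 kb in 53BP1_KO 1, which called a peak of 204 bp in it. Hoxc was also free of peaks at its Hox13-side edge, for 67.5 kb inside the window, more than at its opposite edge. That stretch was 225 kb long in total. At their Hox13-side edges the Hoxa, Hoxb and Hoxd windows were free for 3.97, 9.47 and 0 kb. The midpoint split and these stretches were measured after the positions had been seen, and no test was made.

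The comparison of genotypes asked whether Rad21 peaks at the Hox loci differ without 53BP1. The windows held 14.5 ± 0.71 peaks in WT and 13.5 ± 3.54 in 53BP1_KO (mean ± SD, n = 2 each), a difference of −1 that is within the spread between libraries (exact two-sided permutation p = 1, smallest possible 0.333). The sign of this difference turned with the replicate number, +2 between the replicate 1 libraries and −4 between those of replicate 2. The flanks held 18.5 ± 2.12 peaks in WT and 20 ± 4.24 in 53BP1_KO, a difference of 1.5 (exact permutation p = 1, n = 2 each), with +6 in replicate 1 and −3 in replicate 2. In 0 of the 12 segments were both knockout counts above or both below the WT counts, and the Benjamini-Hochberg adjusted exact permutation p was 1 in each. Of all 250 kb tiles with a peak, which are longer than the windows, 9.61% had both knockout counts above and 4.56% both below.

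Summed over the clusters, peaks covered less of the windows in both knockout libraries. Covered length was 8137 bp in WT 1, 9512 bp in WT 2 and 7347 bp in each 53BP1_KO library, a difference of −1477.5 bp (exact two-sided permutation p = 0.333, the smallest possible, n = 2 each). These sums did not overlap between genotypes, and the exact permutation test cannot give a lower p with 6 arrangements. Taken singly, the Hoxa and Hoxb windows had both knockout libraries below both WT libraries. In the Hoxc and Hoxd windows the genotypes overlapped. How often windows elsewhere separate in covered length was not computed. Over the whole lists the order was the opposite, with 12500560 bp in WT 1 and 12815291 bp in WT 2, and 13287139 bp in 53BP1_KO 1 and 14302763 bp in 53BP1_KO 2. The 53BP1_KO 1 window peaks had a median width of 454.5 bp, against 606.5 bp in WT 1, 644 bp in WT 2 and 586 bp in 53BP1_KO 2, and 53BP1_KO 2 had fewer of them. The part of peak width and number in the difference was not tested.

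Peak strength in the windows did not separate the genotypes. The median percentile of window peaks was 53.7 in WT 1, 69.1 in WT 2, 73.8 in 53BP1_KO 1 and 68.4 in 53BP1_KO 2, a difference of 9.74 (exact two-sided permutation p = 0.667, n = 2 each) that was 2.02 without WT 1 and 17.5 without WT 2. In the flanks the medians were 52.4, 43.6, 45.5 and 56.6. Window peaks therefore had the higher median in each library.

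A single Hox region was called in both libraries of 1 genotype and neither of the other. It lay in the Hoxd window at 40.3 kb (chr2:74539984-74540652, 669 bp) and was called in WT 1 with a fold of 3.5 and in WT 2 with a fold of 4.80, at percentiles 16.4 and 79.2. The WT libraries thus ranked it very differently. Of all regions, 2.19% were called in both WT and neither knockout library and 3.05% in both knockout and neither WT library, so 1 and 0 of 52 Hox regions stand near these shares. Peak lists do not show whether signal below the calling limit lay there in the knockout.

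Of the 19 regions called in all 4 libraries, 3 had both knockout percentiles above both WT percentiles and 1 had both below, against 18.7% and 16.1% of all such regions. In the windows the counts were 1 and 0 of 10, and in the flanks 2 and 1 of 9. The widest gap was at the shared region past Hoxd1 (chr2:74802329-74803059, at 302.7 kb), where the WT folds were 3.45 and 3.80 and the knockout folds 6.49 and 4.23. Its percentiles were 14.2 and 36.0 against 96.9 and 79.4, a mean difference of 63.1. Peak width went the other way. The only peak of this flank was 608 bp in WT 1, 555 bp in WT 2 and 278 bp in 53BP1_KO 2. In 53BP1_KO 1 the 2 peaks of the flank together covered 494 bp. The part of width in the fold difference was not tested. The Hoxb region at 51.7 kb stood at 37.5 and 31.7 in WT and 67.8 and 68.4 in the knockout, a difference of 33.5. Named after its values were seen, a Hoxb flank region at −207.5 kb, toward Ttll6 (chr11:95842111-95842885) differed by 27.7, where the WT folds were 3.69 and 3.53 and the knockout folds 4.23 and 3.68. Its percentiles were 27.6 and 21.1 in WT and 53.4 and 50.6 in the knockout. In fold the genotypes overlapped, 53BP1_KO 2 being just below WT 1, so they separate there only in rank within the lists. In the opposite direction, the Hoxa flank region toward Evx1 stood at 92.7 and 94.1 in WT and 59.7 and 89.5 in the knockout, a difference of −18.7 that was −3.84 without 53BP1_KO 1. No p was computed per region.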

How the data were processed

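Rad21 ChIP-seq was analysed in 4 libraries, 2 WT and 2 53BP1_KO, grouped and numbered by their titles. Libraries were made by tagmentation on beads and read as 150 bp pairs, per the labels' protocols. Bowtie2 2.4.4, SAMtools 1.15.1, deepTools 3.5.1 and MACS2 2.2.7.1 and the build mm9 are named, per the submitters' processing notes; any control library, and the parameters, were not given in the sources used here. Broad peaks were called per library, since each has its own list. The deposited fold enrichment is a ratio per peak from the authors' caller. The deposited significance values are −log10 p and −log10 q, the lowest −log10 q being 1.01 to 1.02. The authors' score column equals the −log10 q multiplied by 10, as checked to within 1.

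Peaks that touched or overlapped were merged across lists with Python 3.11.15, pandas 2.3.3 and NumPy 2.4.6, and the code was tested on simulated peaks. Densities of the whole lists are over 2638 Mb, the summed positions of the last peak of each chromosome. Coordinates are 1-based. Genotypes were compared by exact permutation over 6 arrangements, with the library as replicate. Replicate numbers shared a prefix in the peak names, so differences within each number are given.

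Regions are named by rule: every region of all 4 libraries in a window with 6 or fewer (otherwise the top 4), every region that follows genotype, the shared region of each flank with the highest lowest percentile, the widest of each window, and any crossing a window edge. The members and lists were chosen with earlier results of these data known. No mm9 sequence or annotation was used here, so no peak sequence is printed.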

Additional observations from a re-analysis of the deposited data

How the results depend on the processing

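Differences in peak number are small counts from lists of unknown depth, and thresholds of fold or q act on lists of different scale. Of 59 values under other settings that kept all libraries, 41 stayed within limits. These limits were the Wilson interval of counting error for shares, 1.5 times for counts and the spread between libraries for differences. Of these 41, the replicate block and the window share under other flank lengths could not move. No difference between genotypes passed a threshold, so none could lose it. The flank difference in peak number changed sign with the setting, while the window difference was positive only without 53BP1_KO 2. The window difference ran from −3.5 to 1.5 peaks and the flank difference from −1.5 to 4.5 with single libraries left out, negative without 53BP1_KO 1 and highest without 53BP1_KO 2. With peaks of −log10 q of at least 5, the flank difference was −2 peaks, the covered length difference −2549 bp, the density gap between windows and flanks 7.67 peaks per megabase, the share called in all 4 libraries 12.5% (windows 11.1%, flanks 14.3%, all regions 24.7%), and 2 regions followed genotype (6.71% of all regions, against 5.23% with all peaks) and 2 segments did not overlap. With folds of at least 4, covered length differed by −773.5 bp and the genotypes overlapped in it. The density gap was 11.9, the difference in window percentile 1.92, and the shares were 21.2% in all and 10.5% in flanks (all regions 19.8%). Requiring peaks to cover 50% of a region gave a window share of 31.6% (all regions 20.1%) and 5 regions that followed genotype (7.84% of all). Equal numbers of peaks per list gave 2 segments without overlap. Flanks of 500 kb gave a flank difference of −5 and a density gap of 12.4, and flanks of 100 kb a gap of 19.1.

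The covered length difference ran from −2165 bp without WT 1 to −790 bp without WT 2. The share called in all remaining libraries ran from 39.6 to 57.5% (flanks 30.3 to 50%), highest without 53BP1_KO 1, against 46.6 to 51.7% of all regions. Regions that followed genotype ran from 3 to 17, highest without 53BP1_KO 2, where a single knockout library is compared. Of all regions, 13.7 to 22.3% did so, and 20.7% without 53BP1_KO 2. The number of Hox regions also changed, so Hox counts cannot be set directly beside these shares. With libraries left out, the window percentile difference ran from 2.02 to 17.5 and segments without overlap from 0 to 5. With the percentile of −log10 q in place of fold, chosen after seeing the data, the 4 regions without overlap differed by −23.7 (Hoxa), 14.5 and 18.1 (Hoxb) and 44.2 (Hoxd). The share of window regions on the Hox13 side, 73.7%, was 71.4 to 77.8% under the alternatives added for it.

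Replicate numbers were not treated as pairs, since replicate differences of WT and 53BP1_KO correlated at 0.03 over 2302 windows of 1 Mb. The replicate block left −1 and 1.5 peaks, −1477.5 bp and 9.74 percentile points, since averaging within numbers gives the same means.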
